A study of Mus musculus with 10 samples.

Results

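The histone lysine methyltransferase and demethylase genes of mouse liver were compared between 5 fed and 5 starved mice by RNA-seq. Members were the gene rows whose symbol is Kdm followed by a digit, leaving out Kdm5c, Kdm5d and Kdm6a, or Setd followed by a digit or b, together with Ezh1, Ezh2, Ehmt1, Ehmt2, Suv39h1, Suv39h2, Dot1l and Nsd1. This gave 33 of 23420 gene rows. The rule uses names only, but it was set with earlier results of these data known. All mice were male, of strain C57BL/6 and 4 months old. The fed group had standard chow, and the starved group had water but no food for 48 hours. The labels speak of 5 pairs of mice without saying what a pair shared. Each library was made from total RNA of liver, so that in every comparison fewer cells of a type and less RNA per cell cannot be told apart. Libraries carry the numbers 1 to 5 within each group.

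Histone lysine methyltransferases transfer methyl groups from S-adenosylmethionine to lysines of histones, and demethylases take them off. The Kdm1 enzymes are flavin-dependent amine oxidases, whereas the other Kdm enzymes are JmjC dioxygenases that need iron, oxygen and 2-oxoglutarate. Methylation of H3K4 (lysine 4 of histone H3), H3K36 and H3K79 marks transcribed genes, and that of H3K9 and H3K27 marks silenced chromatin.

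Expression is given as CPM, read counts per gene scaled to library size with edgeR's TMM factors. Of the 33 members, 32 had enough reads to be tested. Kdm4d, an H3K9 demethylase, was the exception, with 0 or 1 read per library, where 3 reads correspond to 0.0994 to 0.174 CPM. Per kilobase of exon, the most abundant member in fed liver was Setd3, now known as a histidine methyltransferase of actin, at 19.6 ± 0.851 CPM per kb (SD, n = 5). Kdm1b, an H3K4 demethylase, stood at 8.72 ± 0.501 and Ehmt2, an H3K9 methyltransferase, at 7.98 ± 0.239 CPM per kb in fed liver. At the lower end of the tested members, Suv39h2, an H3K9 methyltransferase, had 0.200 ± 0.0336, Setd1b, an H3K4 methyltransferase, 0.375 ± 0.0594 and Dot1l, the H3K79 methyltransferase, 0.391 ± 0.0379 CPM per kb in fed liver. In starved liver Setdb2, an H3K9 methyltransferase, had the highest mean level per length, 80.6 ± 102 CPM per kb against 4.09 ± 0.510 in fed liver. Starved libraries 2 and 4 carried this mean, with 972 and 509.9 CPM against 28.2, 47.2 and 74.1 CPM in starved libraries 1, 3 and 5. The rank of Setdb2 therefore holds for the mean and not for each starved library. Setd3 had the second highest mean in starved liver, at 17.7 ± 1.25 CPM per kb.

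Few of these genes were called as different between starved and fed liver. Of the 32 tested members, 4 rose (Setdb2, Dot1l, Setd7 and Kdm5a) and 2 fell (Kdm1b and Kdm2a) by edgeR's quasi-likelihood test at a Benjamini-Hochberg adjusted p under 0.05 over all genes. That is 18.8% of the members tested, where 38.6% of all 12796 tested genes were called (18.6% higher and 20% lower). The groups did not overlap in 5 members, or 15.6%, against 29.9% of all tested genes. The median absolute log2 fold change was 0.27 among members and 0.37 among all tested genes. The median signed log2 fold change was 0.13 among members and 0.00 over all tested genes. With library totals alone in place of TMM, which moved that median over all genes to -0.15, 2 members were higher (Setdb2 and Dot1l) and 4 lower (Kdm1b, Kdm2a, Setdb1 and Setd3), and 38.9% of all genes were called, 1490 higher and 3490 lower where TMM gave 2379 and 2555. Without starved libraries 2 and 4, which stood apart from the other starved libraries, 3 members were higher (Setdb2, Dot1l and Kdm5a) and 4 lower (Kdm1b, Ehmt2, Setd8 and Kdm4b), where 40.9% of all tested genes were called. The count of higher members went from 4 to 1 without fed library 2, 3 or 5, to 2 without fed library 1 or 4 or starved library 4, to 7 without starved library 1 and to 8 without starved library 3. The count of lower members went from 2 to 1 without fed library 1, 2, 3 or 4 or starved library 1, and to 0 without starved library 4. Over all tested genes, leaving out 1 library gave 14.5% to 21.4% higher and 15.9% to 22.0% lower.

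**Figure D1:**
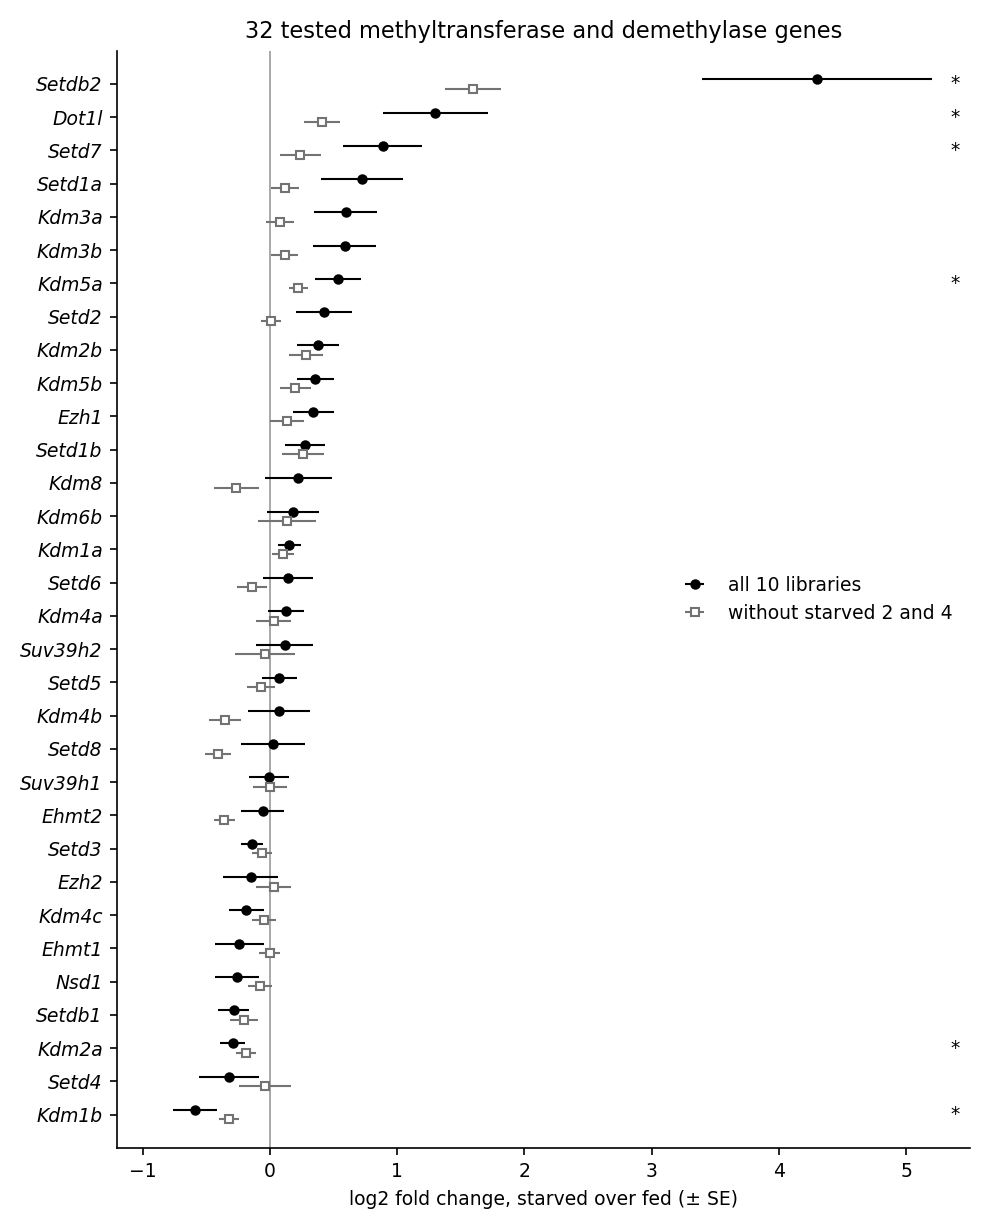
Log2 fold change of starved over fed liver (horizontal axis, ± SE) for the 32 tested members, with all 10 libraries (filled circles) and without starved libraries 2 and 4 (open squares). Asterisks mark the 6 members called with all libraries. Setdb2 stands at 4.30 with all libraries, and all other members lie between -0.59 and 1.30.

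Setdb2 had the largest change of the members by far. It encodes a SET domain protein linked to H3K9 trimethylation, and in mouse liver it is known as a gene that glucocorticoids induce during fasting. In the fed libraries Setdb2 had 17.3, 16.6, 19.6, 14.7 and 14.6 CPM (libraries 1 to 5), and in the starved libraries 28.2, 972, 47.2, 509.9 and 74.1 CPM. Every starved library was above every fed one, and starved libraries 2 and 4 were far above the other starved libraries. The log2 fold change was 4.30 ± 0.90 SE, or 19.7-fold (edgeR adjusted p = 0.00342). Without starved libraries 2 and 4 it was 1.60 ± 0.22, or 3.03-fold (edgeR adjusted p = 0.000174). Each alternative scaling, test and filter that was run, and leaving out any single library, kept the call. The size of the log2 fold change varied more. It was 3.06 by limma-voom, 2.98 with libraries blocked by replicate number, 3.32 without starved library 2 and 4.60 without starved library 1. Setdb1, its paralog and best known for the H3K9 trimethylation of silenced repeats, had 23.5, 25.2, 21.6, 25.7 and 21.9 CPM in fed and 18.3, 15.6, 18.1, 20.4 and 24.3 CPM in starved libraries. Setdb1 was not called (-0.29 ± 0.13, edgeR adjusted p = 0.0886), with 4 of 5 starved libraries below all fed libraries. It was called, as lower, without starved library 5 (-0.38) and with library totals alone as scaling (-0.44).

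Setdb2 lies on the minus strand of chromosome 14 (59402009 to 59440884, mm10), and no exon of another gene in the GENCODE annotation overlaps its exons. The next gene downstream on that strand is Phf11c (59380833 to 59393512 in RefSeq), of a family of PHD finger proteins, and RefSeq also lists Gm45935, with the synonym Setdb2-phf11c, which spans both (59380833 to 59440880). Phf11c had 1.51, 0.961, 1.18, 1.03 and 1.09 CPM in fed libraries and 2.96, 17.0, 4.18, 22.4 and 3.65 CPM in starved libraries. It rose as well (log2 fold change 3.12 ± 0.58, edgeR adjusted p = 0.00175; 1.65 without starved libraries 2 and 4), and its highest libraries were again starved 2 and 4. Of the other neighbours, 1 was called. Phf11b fell (-1.64 ± 0.35, from 0.689 ± 0.119 to 0.209 ± 0.132 CPM), while Phf11d (-0.28 ± 0.21), Phf11a (0.93 ± 0.61) and Rcbtb1 (0.44 ± 0.19) were not called. Phf11b had only 1 to 22 and Phf11a 2 to 44 reads per library, which limits what their values can show. Phf11a and Rcbtb1 were highest in starved libraries 2 (1.87 and 242 CPM) and 4 (1.59 and 142 CPM). Whether reads counted for Phf11c came from a transcript that spans both genes was not tested. These neighbours were chosen after the values of Setdb2 were known.

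**Figure D2:**
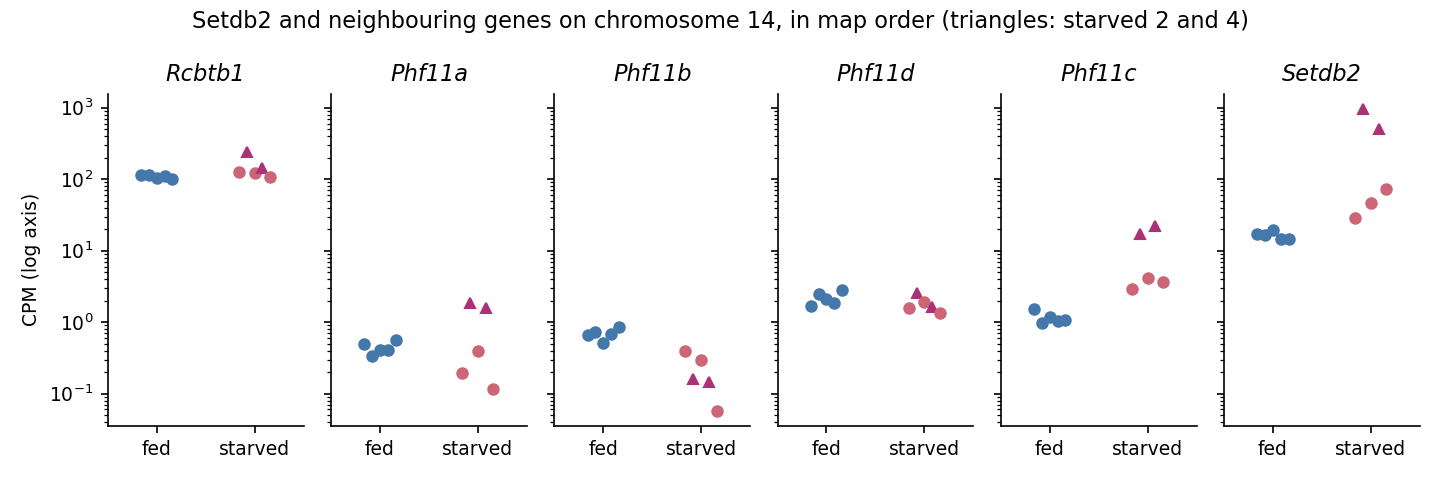
TMM-scaled CPM (log axis) of Setdb2 and of its neighbours Phf11c, Phf11d, Phf11b, Phf11a and Rcbtb1 in each fed (blue) and starved (red) library, with starved libraries 2 and 4 as triangles. Setdb2 and Phf11c are higher in all 5 starved libraries than in any fed library.

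The promoter of Setdb2 is shown with those of its paralog Setdb1 and of Kdm1b and Kdm1a, a pair of paralogs whose balance also differed between the groups. Each line is the 250 bases before the start site in RefSeq (GRCm38.p6), written 5′ to 3′ on the strand of the gene. Capitals mark CCAAT boxes, searched as CCAAT on both strands.
Setdb2 (chr14:59440881-59441130, minus strand): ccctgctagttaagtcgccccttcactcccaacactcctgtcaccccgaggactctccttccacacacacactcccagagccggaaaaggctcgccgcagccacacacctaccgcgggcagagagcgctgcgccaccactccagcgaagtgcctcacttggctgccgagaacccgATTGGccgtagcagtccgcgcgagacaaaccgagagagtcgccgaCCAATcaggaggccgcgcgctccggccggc
Setdb1 (chr3:95357203-95357452, minus strand): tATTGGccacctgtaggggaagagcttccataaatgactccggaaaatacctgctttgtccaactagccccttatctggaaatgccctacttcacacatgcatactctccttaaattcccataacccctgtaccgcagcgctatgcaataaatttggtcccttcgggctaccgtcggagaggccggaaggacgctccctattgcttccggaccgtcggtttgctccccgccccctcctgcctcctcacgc
Kdm1b (chr13:47043249-47043498, plus strand): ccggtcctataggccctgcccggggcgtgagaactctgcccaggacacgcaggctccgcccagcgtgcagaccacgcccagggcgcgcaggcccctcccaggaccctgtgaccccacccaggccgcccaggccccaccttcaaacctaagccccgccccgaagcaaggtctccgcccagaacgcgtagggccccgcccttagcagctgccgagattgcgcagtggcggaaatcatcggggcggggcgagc
Kdm1a (chr4:136602724-136602973, minus strand): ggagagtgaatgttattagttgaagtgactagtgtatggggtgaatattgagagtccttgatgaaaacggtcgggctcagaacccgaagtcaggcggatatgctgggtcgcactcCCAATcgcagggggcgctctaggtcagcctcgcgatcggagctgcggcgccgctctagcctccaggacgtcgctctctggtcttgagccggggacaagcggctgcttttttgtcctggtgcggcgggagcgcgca
The window of Setdb2 held 2 CCAAT boxes, in opposite orientations, and 24 CpG dinucleotides. Setdb1 and Kdm1a had 1 CCAAT box each. Kdm1b had 0 CCAAT boxes but 6 GC boxes (GGGCGG on either strand). None of the marked boxes overlapped another motif searched. The 6-letter half-site of the glucocorticoid receptor (TGTTCT on either strand) did not occur in the 4 windows, which says only that these letters are not in these windows.

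Promoter windows could be matched for 26 of the 33 members, with 37 start sites in all. These windows were rich in G and C, with a median of 63.6% against 52.4% over all 32851 windows of the table, and held a median of 21 CpG dinucleotides against 6. GC boxes occurred in 62.2% of member windows and in 32.7% of all windows, and CCAAT boxes in 45.9% and 33.9%. The cAMP response element half-site (TGACG) was found in 21.6% and 17.8%, the E-box (CACGTG) in 8.11% and 6.02%, the forkhead motif (TGTTTAC) in 2.70% and 3.17%, and TGTTCT in 5.41% and 16.1%. Several windows belong to the same gene and overlap, so these shares are descriptions and were not tested.

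The other H3K9 methyltransferases were not called with all libraries, but 1 of them divided the starved libraries. Ehmt2 (G9a), which makes H3K9 mono- and dimethylation together with Ehmt1 (GLP), had 44.4, 44.1, 45.5, 42.1 and 42.9 CPM in fed libraries and 30.9, 60.1, 33.1, 49.3 and 37.3 CPM in starved libraries. Starved libraries 1, 3 and 5 were below every fed library, and starved 2 and 4 above every fed library. With all libraries the log2 fold change was -0.06 ± 0.17 (edgeR adjusted p = 0.814), and without starved 2 and 4 it was -0.36 ± 0.08 and was called. Ehmt1 went from 22.8 ± 1.39 to 19.3 ± 5.51 CPM, with starved library 2 lowest at 9.94 CPM. Suv39h1 and Suv39h2, which trimethylate H3K9 in heterochromatin, stood at 8.18 ± 0.555 and 0.881 ± 0.148 CPM in fed liver. With starvation they stood at 8.14 ± 1.77 and 0.963 ± 0.278 CPM.

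Among H3K4 methyltransferases, 1 of 3 was called. Setd7, which monomethylates H3K4 and many non-histone proteins, had 6.67, 7.03, 6.14, 6.75 and 7.73 CPM in fed libraries and 8.01, 22.0, 10.1, 17.6 and 5.68 CPM in starved libraries. Starved library 5 was below all fed libraries and the other 4 were above them. Setd7 rose (0.89 ± 0.31, edgeR adjusted p = 0.0406). This call was lost without any single fed library, without starved library 2 (0.61) or 4 (0.76) and without both (0.24), by limma-voom and with library totals alone. Setd1a and Setd1b, catalytic subunits of COMPASS complexes that trimethylate H3K4, were not called (0.72 ± 0.32 and 0.27 ± 0.16). Setd1b went from 4.52 ± 0.717 to 5.47 ± 0.819 CPM. Setd1a reached 29.1 CPM in starved library 2 and ranged from 8.36 to 12.0 CPM in the other starved libraries, against 7.33 to 9.38 CPM in fed libraries. Its exons share 51.9% of their bases with another gene model on the same strand (Gm49388), so reads there may not be counted for Setd1a.

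Dot1l, the methyltransferase of H3K79, had 3.86, 3.15, 3.53, 3.03 and 3.46 CPM in fed libraries. In starved libraries it had 4.94, 20.7, 4.23, 7.95 and 4.17 CPM. Every starved library was above every fed one, with the largest step in starved library 2. Dot1l rose (1.30 ± 0.41, edgeR adjusted p = 0.0271), and by 0.41 ± 0.14 without starved libraries 2 and 4. Leaving out fed library 2, 3, 4 or 5 ended this call, as did limma-voom. Setd8 (Kmt5a), which monomethylates H4K20, had 28.4, 24.1, 25.01, 23.3 and 23.8 CPM in fed and 17.9, 47.4, 20.6, 23.9 and 17.1 CPM in starved libraries. As with Ehmt2, starved libraries 1, 3 and 5 were below all fed libraries, but here starved library 4 was within the fed range. Setd8 was not called (0.02 ± 0.25, edgeR adjusted p = 0.948) with all libraries, and was called, as lower, without starved library 2 alone (-0.31, edgeR adjusted p = 0.0377) and without starved 2 and 4 (-0.41 ± 0.10).

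The catalytic subunits of the H3K27 methyltransferase PRC2 were not called. Ezh2, the subunit of dividing cells, went from 3.92 ± 0.227 to 3.51 ± 1.083 CPM, and Ezh1, that of resting cells, from 15.7 ± 2.88 to 19.9 ± 3.98 CPM. Ezh1 was called, as higher, without fed library 4 (0.45), which at 20.6 CPM was above the other fed libraries. Of 6 proliferation markers 5 fell, where 20% of all tested genes were called lower. The summed level of the 6 markers was 10.5 to 18.0 CPM in fed and 1.70 to 3.30 CPM in starved libraries. The part of dividing cells in the values of Ezh1 and Ezh2 was not tested. The H3K36 methyltransferases Setd2, which makes the trimethyl mark, and Nsd1, which makes the dimethyl mark, were not called either. Setd2 had 108.7 CPM in starved library 2, 67.5 CPM in starved 4 and 44.9 to 48.4 CPM in starved 1, 3 and 5, against 43.0 to 49.9 CPM in fed libraries. Nsd1 moved the other way in starved library 2, where it had 31.9 CPM against 59.2 to 66.9 CPM in the other starved and 60.1 to 73.1 CPM in the fed libraries. None of Setd3, Setd4, Setd5 and Setd6, SET domain proteins with little or no settled role on histones, was called. They went from 118.1 ± 5.13 to 107.1 ± 7.57 CPM, from 8.59 ± 2.08 to 6.89 ± 2.26, from 28.3 ± 2.32 to 29.8 ± 6.04 and from 11.4 ± 1.44 to 12.6 ± 4.31 CPM, in that order.

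Of the 4 H3K4 demethylases, Kdm5a rose and Kdm1b fell. Kdm5a, which removes the di- and trimethyl marks, had 45.1, 44.3, 40.2, 45.3 and 42.9 CPM in fed and 51.1, 97.6, 48.8, 67.4 and 50.3 CPM in starved libraries. The groups did not overlap, and starved 2 and 4 were again highest (0.53 ± 0.18, edgeR adjusted p = 0.0352; 0.22 ± 0.07 without them). This call was lost without any single fed library, without starved library 4 (adjusted p = 0.0639) and with library totals alone as scaling. Kdm1b, a flavin-dependent demethylase of mono- and dimethylated H3K4, had 43.8, 51.5, 48.9, 47.4 and 47.9 CPM in fed and 37.5, 19.5, 36.8, 26.5 and 39.2 CPM in starved libraries. The groups did not overlap, and starved 2 and 4 were lowest. Kdm1b fell by 0.59 on the log2 scale (± 0.17 SE, edgeR adjusted p = 0.0197) and by 0.32 ± 0.08 without starved 2 and 4. Its call was lost without starved library 4 (adjusted p = 0.0548). The exons of Kdm1b share 9.19% of their bases with Dek on the opposite strand. Kdm1a (LSD1), the other flavin-dependent enzyme, had 19.7, 21.2, 18.98, 20.1 and 18.4 CPM in fed and 19.4, 23.4, 21.2, 23.3 and 22.1 CPM in starved libraries. It was not called (0.15 ± 0.09). Kdm5b, a relative of Kdm5a, went from 19.5 ± 1.84 to 24.9 ± 5.08 CPM and missed the threshold (edgeR adjusted p = 0.0698). It passed with DESeq2 (Wald adjusted p = 0.0433) and without starved library 1 or 3.

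**Figure D3:**
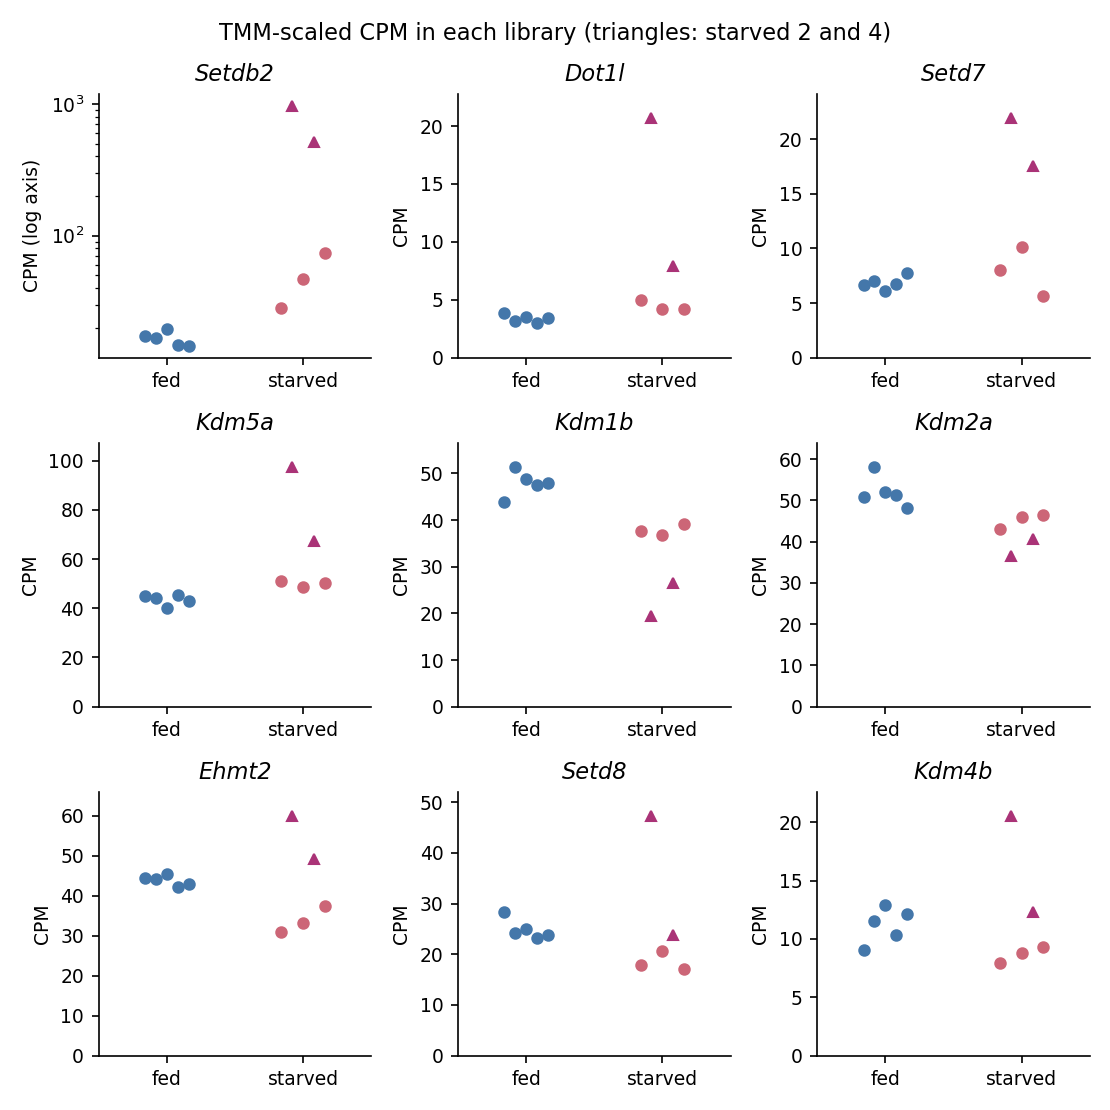
TMM-scaled CPM in each fed (blue) and starved (red) library for the 6 called members and for Ehmt2, Setd8 and Kdm4b, with starved libraries 2 and 4 as triangles. The axis of Setdb2 is logarithmic and the others start at 0. Setdb2, Dot1l and Kdm5a are higher and Kdm1b and Kdm2a lower in every starved library than in any fed one, and in Ehmt2, Setd8 and Kdm4b the 3 other starved libraries are below both triangles.

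Of the 3 members classed here as H3K36 demethylases, Kdm2a fell. It had 50.9, 58.2, 52.0, 51.4 and 48.1 CPM in fed and 43.1, 36.5, 46.0, 40.7 and 46.4 CPM in starved libraries, with no overlap. The fall was small (-0.29 ± 0.10, edgeR adjusted p = 0.0334). The call was lost without starved libraries 2 and 4 (-0.19), without fed library 1, 2, 3 or 4 or starved library 1 or 4, and without a filter on low counts. Kdm2b, which recruits a Polycomb complex to CpG islands, went from 7.09 ± 0.655 to 9.22 ± 2.27 CPM and was not called (0.38 ± 0.17), but was called, as higher, without starved library 3 (0.47). Kdm8, the other member of the class, had 2.72 to 4.03 CPM in fed and 2.33 to 6.15 CPM in starved libraries.

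None of the 6 tested demethylases of H3K9 and H3K27 was called with all libraries, although 2 had an unadjusted p under 0.05. Kdm3a and Kdm3b, which remove mono- and dimethyl marks from H3K9, had log2 fold changes of 0.60 ± 0.25 and 0.59 ± 0.25 (edgeR adjusted p = 0.0738 and 0.0791). Both were highest in starved libraries 2 (34.0 and 55.4 CPM) and 4 (28.9 and 34.0 CPM). The other starved libraries had 14.2 to 15.3 CPM of Kdm3a and 20.2 to 24.9 CPM of Kdm3b, where fed libraries had 12.5 to 16.0 and 18.0 to 23.0 CPM. Kdm3a passed with DESeq2 (Wald adjusted p = 0.0458), and both genes were called without starved library 1 or 3, and Kdm3a also without starved library 5. The exons of Kdm3b share 24.6% of their bases with the noncoding gene Gm26538 on the opposite strand. Kdm4b, a demethylase of trimethylated H3K9 and H3K36, had 9.10, 11.5, 12.9, 10.4 and 12.1 CPM in fed and 7.94, 20.6, 8.80, 12.3 and 9.27 CPM in starved libraries. It was not called (0.07 ± 0.24), but was lower without starved 2 and 4 (-0.35 ± 0.13, edgeR adjusted p = 0.0423). Kdm4a (22.1 ± 3.13 and 24.1 ± 4.15 CPM) and Kdm4c (14.3 ± 0.739 and 12.5 ± 2.32 CPM) were not called. Kdm6b, the H3K27 demethylase that inflammatory signals induce, stayed low at 3.79 ± 0.957 and 4.31 ± 0.849 CPM.

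Starved library 2 was the highest or lowest of the starved libraries in 27 of the 32 tested members (84.4%), highest in 19 and lowest in 8, where this held for 68.7% of all tested genes. Starved libraries 2 and 4 were the highest pair in 17 members (53.1%, and 24.7% of all tested genes) and the lowest pair in 5 (15.6%, and 25.5% of all tested genes). The spread of log2 CPM was wider in starved than in fed libraries in 30 of 32 members (93.8%), and in 82.1% of all tested genes. Starved 2 and 4 also had the highest summed level of the 4 neutrophil markers, 14.7 and 17.9 CPM, where starved libraries went down to 2.26 CPM and fed libraries had 1.48 to 3.41 CPM. Of these 4, S100a8 and S100a9 carried the level, and Ngp and Camp, more specific to neutrophil precursors, had means of 0.0416 and 0.0263 CPM in starved liver. The same 2 libraries had the lowest summed levels of the starved libraries for Kupffer cell markers (179.9 and 123.5 CPM against 183.8 to 220.9), lymphocyte markers (8.77 and 8.46 against 11.7 to 15.2) and cholangiocyte markers (16.0 and 15.0 against 35.6 to 40.6). Single genes carried the last 2 sums. Ptprc had 8.34 and 7.37 CPM of the lymphocyte sums, and Spp1 12.0 and 12.6 CPM of the cholangiocyte sums. Epcam, also a cholangiocyte marker, was highest of the starved libraries in starved 2 (2.19 CPM). Endothelial and stellate sums were highest of the starved libraries in starved 2 (228.0 and 619.1 CPM), but not in starved 4 (186.2 and 424.3 CPM). Starved 2 and 4 also had the lowest shares of reads with more than 1 alignment among all 10 libraries, 38.6% and 40.7%, and the highest shares of ambiguous reads, 0.790% and 0.694%. The part of these cells and read classes in the members' values was not tested.

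Many of these enzymes come as pairs of paralogs, so the log2 ratio of their read counts within each library was compared between the groups for 10 pairs. Such a ratio does not depend on how libraries are scaled. For 2 pairs the groups did not overlap and the exact two-sided permutation test gave its smallest possible p, 0.00794 (adjusted p = 0.0397 over the 10 pairs). The log2 ratio of Setdb1 to Setdb2 went from 0.51 ± 0.25 (SD, n = 5) in fed to -2.84 ± 2.32 in starved liver, so that Setdb1 had more reads in all 5 fed libraries and Setdb2 had more in all 5 starved libraries. That of Kdm1a to Kdm1b went from -1.28 ± 0.09 to -0.50 ± 0.52, and in starved library 2 Kdm1a had more reads than Kdm1b. Leaving out any 1 fed library kept the differences at -3.45 to -3.28 and at 0.76 to 0.82, with no overlap, but the exact permutation p was then 0.0159 or 0.0238 and the adjusted p 0.0794 or 0.106. Without starved libraries 2 and 4 the differences were -1.72 and 0.42, again with no overlap. Their exact permutation p of 0.0179 is the smallest that 5 against 3 libraries allow, and its adjusted value was 0.0595. The ratio of Ehmt1 to Ehmt2 then had no overlap either (-1.16 to -0.84 in fed, -0.64 to -0.56 in starved 1, 3 and 5). It differed by 0.36 at the same adjusted permutation p, where all libraries had given -0.20. For Kdm2a to Kdm2b the ratio went from 2.88 ± 0.18 to 2.23 ± 0.45 (exact permutation p = 0.0238, adjusted p = 0.0794), and this difference passed without starved library 3. The other 7 pairs had exact permutation p-values from 0.127 (Ezh1 to Ezh2) to 0.929 (Kdm3a to Kdm3b). Their groups overlapped. Kdm3a to Kdm3b differed by 0.01 between group means, against SDs of 0.26 in fed and 0.21 in starved liver.

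**Figure D4:**
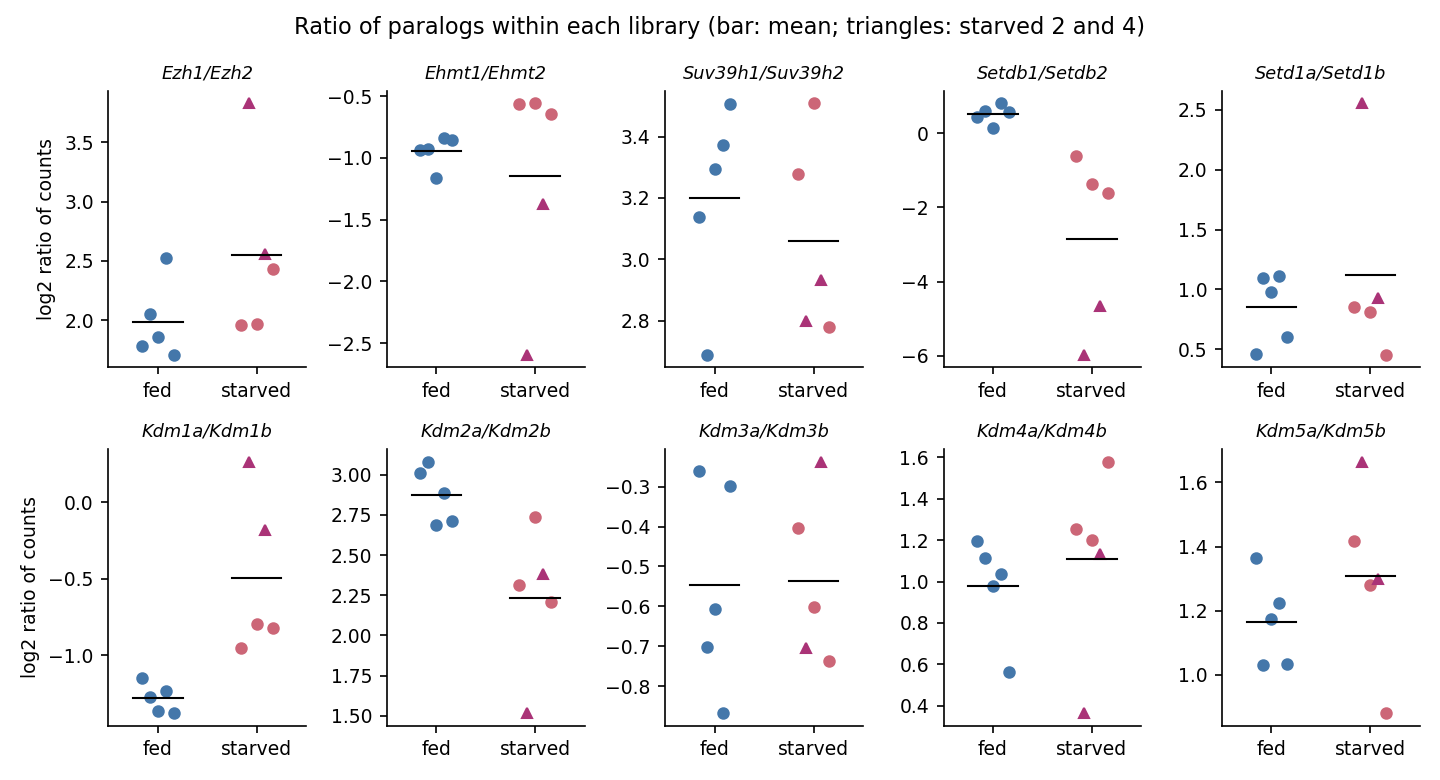
Log2 ratio of read counts of 10 pairs of paralogs within each fed (blue) and starved (red) library, with bars at the group means and starved libraries 2 and 4 as triangles. The scales differ between panels. The groups do not overlap for Setdb1/Setdb2 and Kdm1a/Kdm1b.

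Genes that work with the members were taken from fixed lists. The counts of called genes, here and below, are to be read beside the share over all 12796 tested genes, 18.6% higher and 20% lower. Of 18 other lysine methyltransferases tested, 3 rose and 2 fell (median log2 fold change 0.17). They were Smyd4 (0.68 ± 0.14), Smyd5 (0.67 ± 0.17, or 0.40 if starved libraries 2 and 4 are left out) and Prdm2 (0.58 ± 0.13), and Smyd3 (-0.99 ± 0.19) and Suv420h2 (-0.62 ± 0.19), an H4K20 methyltransferase. The call of Suv420h2 was lost without fed library 2 or 3 or starved library 4. The MLL family, which includes large H3K4 methyltransferases, had 0 of 5 members called (Mll1, Mll2, Mll3, Mll5 and Wbp7). Of 14 other JmjC proteins, 4 rose and 1 fell (median 0.16). Hspbap1 had the largest rise, 1.69 ± 0.40 (0.84 if starved libraries 2 and 4 are left out), then Hr, a corepressor with a JmjC domain (0.92 ± 0.26). Jmjd6 and Jmjd7 also rose (0.52 ± 0.11 and 0.45 ± 0.14), while Jmjd8 fell (-0.62 ± 0.16). Jmjd7 lost its call with library totals alone and without fed library 5 or starved library 3.

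Of 13 partners of the H3K4 methyltransferases in COMPASS complexes, 0 rose and 1 fell (median 0.09). It was Pagr1a (-0.61 ± 0.21), whose call was lost without any single fed library and without starved library 1 or 4. Of 10 PRC2 partners, 2 rose and 1 fell (median 0.13). Aebp2 (0.59 ± 0.14) and the core subunit Eed (0.48 ± 0.16) rose, and Phf19 fell from 1.09 ± 0.247 to 0.381 ± 0.220 CPM (-1.52 ± 0.36, or -0.99 if starved libraries 2 and 4 are left out). Eed lost its call without starved 2 and 4, without fed library 2, 3 or 4 and with library totals alone. Suz12, the other core subunit, was not called with all libraries (0.08 ± 0.19), and was called, as lower, without starved 2 and 4 (-0.25). A list of partners of the Kdm1 enzymes held corepressor subunits that work with Kdm1a and the Kdm1b cofactor Glyr1. Of its 11 tested genes, 1 rose and 2 fell (median -0.15). They were Glyr1 (0.38 ± 0.10), and Gse1 (-0.84 ± 0.21) and Rcor3 (-0.60 ± 0.17). The call of Glyr1 was lost with library totals alone as scaling.

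Among 10 tested H3K9 partners and HP1 readers, Mbd1 rose (0.65 ± 0.12) and Uhrf1, a maintenance factor of DNA methylation in dividing cells, fell (-2.57 ± 0.47, from 0.617 ± 0.193 to 0.0970 ± 0.0792 CPM). Uhrf1 had 0 to 26 reads per library, so the size of its fall is uncertain. Its starved values were 0 to 0.195 CPM, where 3 reads correspond to 0.0994 to 0.174 CPM. The HP1 genes Cbx1, Cbx3 and Cbx5 were not called with all libraries. Cbx5 was nevertheless lower in each starved library (7.32 to 32.9 CPM) than in any fed one (35.9 to 43.8 CPM), and was called without starved 2 and 4 (-0.40, edgeR adjusted p = 0.00564). Of 6 DOT1L partners, Mllt3 fell (-1.25 ± 0.21, from 3.70 ± 0.5004 to 1.55 ± 0.465 CPM) while Dot1l itself rose. Aff4 rose (0.59 ± 0.21), and its call was lost in 11 of the alternatives, among them without starved 2 and 4 (0.16). Of 10 genes of methyl donor supply and use, 7 rose and 0 fell (median 0.86), where 18.6% of all tested genes were higher. The 7 were Bhmt, Mat1a, Mat2a, Mat2b, Ahcy, Ahcyl1 and Nnmt. Not all of them supply the donor, as Nnmt (1.84 ± 0.17) is a methyltransferase that uses it. Among the 7, Mat2b (0.44 ± 0.14) lost its call with library totals alone and without fed library 2, 3 or 5. Bhmt, which remethylates homocysteine, rose from 3116 ± 791 to 12519 ± 6769 CPM (2.01 ± 0.37). Mat1a, the S-adenosylmethionine synthetase of liver, rose from 4294 ± 547 to 16677 ± 4451 CPM (1.96 ± 0.20).

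Reads assigned to genes came to 23.0 to 29.9 M per fed and 18.2 to 28.1 M per starved library. Hepatocyte markers were high in all 10 libraries, at a summed level of 84560 to 125300 CPM in fed and 106900 to 166700 CPM in starved libraries. Of 7 Kupffer cell markers 6 fell, from a summed 276 to 443 CPM in fed to 124 to 221 CPM in starved libraries. Endothelial markers (3 of 6 lower, 1 higher), lymphocyte markers (2 of 5 tested lower), stellate markers (1 higher and 1 lower of 6) and cholangiocyte markers (1 of 5 lower) moved less uniformly. Their part in the members' values was not tested.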

How the data were processed

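RNA-seq libraries from the livers of 5 fed and 5 starved mice were analysed from the raw read counts per gene that the authors deposited, 1 file per library. The submitters' processing notes name CASAVA 1.8.2 and TopHat2 2.0.0, then Bowtie2 2.0.0, edgeR 3.6.4, HTSeq without a version, and the mouse build mm10. For the annotation and strand setting nothing was found in the sources used here, so genes that overlap on opposite strands are uncertain. HTSeq's summary lines were left out of library totals and of every test. Reads with more than 1 alignment made up 38.6% to 48.4% of the reads HTSeq tallied in a library.

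Genes that passed filterByExpr (12796 of 23420) were TMM-scaled and tested in edgeR 4.0.16 under R 4.3.3 with the quasi-likelihood test, and called at a Benjamini-Hochberg adjusted p under 0.05 over all of them. The SE was derived from the log2 fold change and its F statistic. Other scalings (DESeq2, upper quartile, library totals), DESeq2 1.42.0, limma-voom 3.58.1, no filter, a minimum of 1 CPM in 5 libraries, a replicate block and leaving out each library were alternatives. Leaving out starved libraries 2 and 4 together was chosen after seeing the data. Paralog ratios had 0.5 added to each count. The p-values measure only the spread between these samples.

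Exon lengths came from GENCODE M21 (GRCm38), which held 98.5% of gene rows and all 33 members, Setd8 as Kmt5a. Members and lists were chosen with earlier results of these data known. Called members and both genes of each pair past the exact test are given by library. From each list up to 2 higher and 2 lower genes of the largest change and at least 1 CPM are named. The values by library of other members and Phf11 genes were chosen after the data were seen. So were further list genes (Prdm2, Jmjd6, Jmjd7, Mat2a, Mat2b, Ahcy, Ahcyl1, Nnmt, Uhrf1 and uncalled ones), single marker genes and the marking of CCAAT boxes.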

Additional observations from a re-analysis of the deposited data

Results flagged for a closer look

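Within groups of 5 libraries, 9 of 64 sets of member values had a library far from the other 4 (Dixon's ratio above 0.71). Chance flags about 1 in 20 of independent sets, but these sets share the same libraries. Starved library 2 was the highest or lowest starved library in 68.7% of all tested genes. The share of flags over all tested genes was not computed, so these flags are not a trait shown for the members. Of the 9 flags, 6 were starved library 2. It was high for Dot1l (20.7 CPM), Setd1a (29.1 CPM), Setd6 (20.04 CPM), Setd8 (47.4 CPM) and Suv39h2 (1.44 CPM), and low for Nsd1 (31.9 CPM). In the fed group, library 3 was low for Ehmt1 (20.3 CPM), library 1 high for Kdm4c (15.6 CPM) and library 4 high for Kdm8 (4.03 CPM). Setdb2 was not among them, since starved libraries 2 and 4 were both high.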

How the results depend on the processing

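Setdb2 was called higher in each alternative run. The number of members called higher was 4, 6 with DESeq2's Wald test (Kdm3a and Kdm5b added), and 2 with library totals alone or limma-voom, and leaving out 1 library at a time gave 1 to 8. The number called lower was 2, and 4 with library totals alone or without starved libraries 2 and 4, and 1 without a filter or with a replicate block, and leaving out 1 library gave 0 to 3. With the replicate block 3 members were higher, as Dot1l, Setd7 and Kdm2a missed the threshold and Kdm5b passed it. Of the list genes named, Eed, Jmjd7, Aff4 and Mat2b missed it with the block. Same-numbered libraries had correlations of 0.20, 0.07, -0.01, -0.05 and -0.03 in their deviations from the group means. Of the 5 numbers, 1 matched best with itself in both groups. Such values cannot decide whether equal numbers mark the pairs of mice, since a pair need not leave a correlation over all genes. The number of pairs of paralogs past the exact test was 2, and 0 without starved libraries 2 and 4 or with a replicate block (a sign-flip test whose smallest p is 0.0625), and leaving out 1 library gave 0 to 3.

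Values not called with all libraries turned direction, and the cause was not tested. With library totals alone they were -0.0061 for Kdm1a, -0.0336 for Kdm4a, -0.11 for Kdm4b, -0.0939 for Setd5, -0.0347 for Setd6, -0.17 for Setd8 and -0.0484 for Suv39h2. With limma-voom they were -0.0152 for Kdm4b and -0.0878 for Setd8. With a replicate block they were -0.0061 for Kdm4b and -0.0854 for Setd8. With upper-quartile factors the value was -0.0182 for Setd8. With DESeq2 size factors it was 0.0213 for Suv39h1. With the Wald test of DESeq2 it was 0.0211 for Suv39h1. Without starved libraries 2 and 4 they were 0.0286 for Ezh2, -0.35 for Kdm4b, -0.27 for Kdm8, -0.0703 for Setd5, -0.14 for Setd6, -0.41 for Setd8, 0.0004 for Suv39h1, -0.0358 for Suv39h2, 0.36 for Ehmt1/Ehmt2, -0.14 for Setd1a/Setd1b and -0.0335 for Kdm3a/Kdm3b. Leaving out 1 library gave -0.21 to 0.0406 for Ehmt2, -0.22 to 0.0372 for Ezh2, -0.21 to 0.19 for Kdm4b, -0.0271 to 0.35 for Kdm8, -0.0305 to 0.16 for Setd5, -0.073 to 0.24 for Setd6, -0.31 to 0.14 for Setd8, -0.084 to 0.0926 for Suv39h1, -0.0522 to 0.22 for Suv39h2, -0.35 to 0.16 for Ehmt1/Ehmt2, -0.0895 to 0.44 for Setd1a/Setd1b and -0.0701 to 0.0812 for Kdm3a/Kdm3b. Suv39h2 had as few as 15 reads and Kdm8 49 in a library, which limits what their values can show.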
